A study of Mus musculus with 17 samples.

Results

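Hair follicle stem cells (HFSCs) sorted from the skin of mice that had fasted for 24 h were compared with HFSCs from mice fed ad libitum, with 3 RNA-seq libraries in each group. The genes described are those with a mean of at least 1 TPM (transcripts per 1000000, the unit of the table) over these 6 libraries, which held 11456 of the 35674 gene symbols in the table, and the 6 libraries are among 17 in the series. All mice were wild type and the tissue was skin; their age and hair cycle stage are not given. It is also not stated that the 3 libraries of a group came from separate animals, so p-values measure the spread between libraries, which may be partly technical. Another 3 HFSC libraries, from mice fasted for 48 h, entered the same fit only to help estimate that spread, and 4 HFSC libraries of a longer experiment (6 months of food ad libitum or of fasting every other day) are set beside the results at the end. At the edge of the filter, Slx4ip stood just inside at a mean of 1.00004 TPM and Cit just outside at 0.997679 TPM.

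HFSCs sit in the bulge of the hair follicle, where they are mostly quiescent and regenerate the follicle at each hair cycle. Fasting lowers insulin and raises glucocorticoids, catecholamines and circulating fatty acids, and most tissues answer with less anabolic synthesis and more oxidation of fat. Known transcript responses include targets of the fatty acid receptors of the PPAR family, of the glucocorticoid receptor and of the FOXO factors that insulin holds back.

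The full-length libraries were amplified from small amounts of RNA. Between 10422 and 11690 symbols reached 1 TPM in each of the 6 libraries. The 13 transcripts of the mitochondrial genome (symbols starting with mt-) took 33.9, 25.4 and 32.7% of TPM in the 3 fed libraries and 18.8, 36.3 and 27.2% in the 3 fasted ones, so the groups overlapped; for values without these symbols, the rest of each library was rescaled to the same total. Over log2(TPM + 1) of the genes tested, pairs of fed libraries correlated at a Pearson's r of 0.932 to 0.943, pairs of fasted libraries at 0.902 to 0.921 and pairs across the groups at 0.879 to 0.92. The 10 HFSC markers summed to 43580 to 49040 TPM in the fed libraries and 24040 to 37180 TPM in the fasted ones, most of it from the bulge keratin Krt15. Markers of endothelium (6 genes, at most 1.66 TPM in sum), adipocytes (6 genes, at most 0.531 TPM) and muscle (6 genes, at most 2.00 TPM) were near 0 in every library, and 5 of 9 immune markers, Ptprc and Cd3e among those below 1 TPM on average, were at 0 in all 6. The summed level of 6 Schwann cell markers was 0.781 to 6.51 TPM in the fed and 5.39 to 14.5 TPM in the fasted libraries, with 4 of the 6 below 1 TPM on average and Mbp among the genes called higher in the test below. Mbp differed by 1.96 ± 0.50 (log2 fold change ± SE) with an adjusted p of 0.0453 in limma's test, and up to 0.188 when fed library 1 was left out. The sum of 6 dermal papilla markers was 24.8 to 74.8 TPM in the fed and 10.1 to 27.2 TPM in the fasted libraries, with all but Crabp1 below 1 TPM on average. In the fed and fasted libraries, fibroblast markers summed to 10.75 to 22.7 and 4.96 to 33.2 TPM. Melanocyte markers summed to 27.7 to 46.1 and 24.8 to 35.5 TPM, and erythroid ones to 5.26 to 34.4 and 6.37 to 7.22 TPM. Basal epidermal and upper follicle markers summed to 178 to 223 and 135 to 186 TPM. Hair matrix and inner root sheath markers summed to 20.5 to 34.0 and 15.7 to 38.2 TPM. The part of these marker lists in the results was not tested. In such bulk samples fewer cells of a type and less RNA per cell cannot be told apart.

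After 24 h of fasting, 355 of the 11456 genes (3.1%) differed from the fed libraries at an adjusted p under 0.05 in limma's moderated test with Benjamini-Hochberg adjustment. Higher levels were called for 169 genes (1.48%) and lower levels for 186 (1.62%). These shares are the comparison for each count of called genes in a list below. All 355 had 3 fasted libraries wholly above or wholly below the 3 fed ones, as did 7.81% (above) and 10.2% (below) of all genes tested. The count depended on single libraries: it was 99 without fed library 1, 214 without fed library 2, 153 without fed library 3 and 220 without the second 48 h library, and 76 genes (52 higher, 24 lower) were called in each of the 9 fits that leave out 1 library. A gene below is one of these 76 unless its count of the 9 fits is given. A trend of the variance with the level was part of the fit, and without it 141 genes were called; with no filter on low values it was 65.

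**Figure D1:**
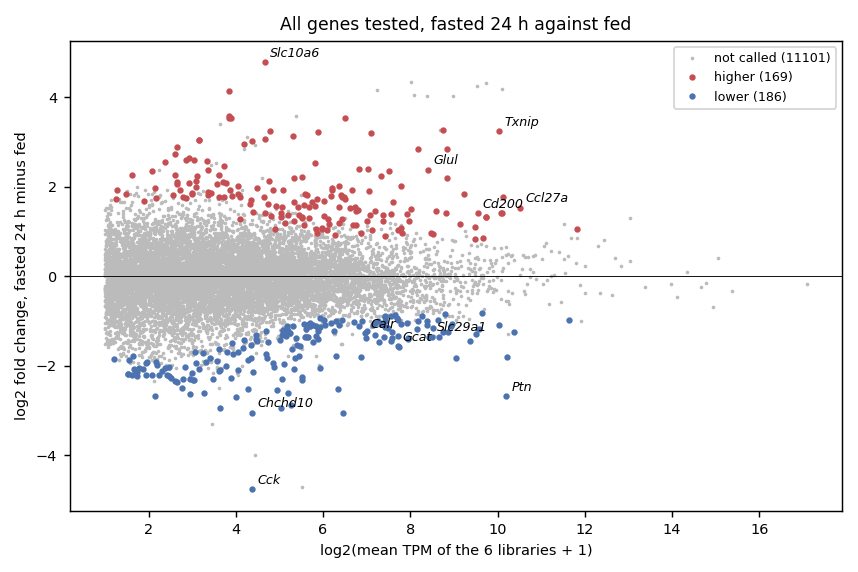
Each point is 1 of the 11456 genes tested, with the log2 of its mean TPM plus 1 over the 6 libraries on the x axis and its log2 fold change, fasted 24 h minus fed, on the y axis. Red points are the 169 genes called higher, blue points the 186 called lower, and the group of grey points near 4 on the y axis are clone-named gene models that were not called.

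Slc10a6 had the largest rise among the named genes. This gene, which encodes a sodium-dependent carrier of steroid sulfates, lay at 0, 1.27 and 1.09 TPM in the fed libraries and 44.7, 30.9 and 67.6 TPM in the fasted ones (log2 fold change 4.79 ± 0.43, adjusted p = 5.99e-05; here and below ± is the standard error of the log2 fold change). Fold changes were computed from log2(TPM + 1), so those of genes near 0 are smaller than the ratio of their levels. Pdk4, the kinase that shuts pyruvate out of the mitochondrial oxidation pathway, had 0, 0.103 and 1.23 TPM in fed and 17.4, 14.6 and 46.6 TPM in fasted libraries. Pdk4 rose by 4.15 ± 0.47 on the log2 scale (adjusted p = 0.000311). Every fasted library held at least 14.6 TPM of each of these transcripts and no fed library more than 1.27 TPM.

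Cyp27a1, the mitochondrial sterol 27-hydroxylase, rose from 4.78, 7.22 and 53.7 TPM to 154, 138 and 185 TPM. Cyp27a1 rose by 3.53 ± 0.57 on the log2 scale (adjusted p = 0.00384). Fed library 3 was the highest of the fed libraries. For Angptl4, a secreted inhibitor of lipoprotein lipase, it stood at 97.7 TPM against 5.31 and 23.5 TPM in the other fed libraries and 286, 185 and 224 TPM in the fasted ones. Angptl4 rose by 3.21 ± 0.62 on the log2 scale (adjusted p = 0.0121). Of the 21 tested genes of a PPAR and fasting metabolism list, 5 were higher (23.8%) and none lower, against 1.48% and 1.62% of all genes tested. With 1 library left out, 3 to 6 genes of the list were called higher. The 16 not called include Cpt1a (1.27 ± 0.46, adjusted p = 0.152) and Acadm (0.61 ± 0.23, adjusted p = 0.165). The median log2 fold change of the list was 0.697, against -0.027 over all genes tested. The 5 include Hadhb, a subunit of the trifunctional enzyme of fatty acid oxidation (1.03 ± 0.26; called in 3 of the 9, adjusted p up to 0.182 without fed library 1), and Pnpla2, the lipase that opens triglyceride stores (1.92 ± 0.49; called in 1 of the 9, adjusted p up to 0.2 without fed library 1). The rise of Pnpla2 was uneven, with 6.37, 11.6 and 10.7 TPM in fed and 55.5, 13.3 and 71.2 TPM in fasted libraries. Beside these lipid genes, the summed level of 7 sebocyte markers went from a range of 9.07 to 13.3 TPM in the fed libraries to 14.5 to 37.5 TPM in the fasted ones, with Mc5r, Awat1 and Dgat2l6 below 1 TPM on average; its part in the result was not tested.

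Txnip, an arrestin-family protein that limits glucose uptake and is among the best known fasting-responsive transcripts, rose from 104, 354 and 168 TPM to 1693, 1115 and 2848 TPM. Txnip rose by 3.24 ± 0.38 on the log2 scale (adjusted p = 0.000389). Its relative Arrdc3 (named after its values were seen) had 28.2, 94.8 and 42.3 TPM in fed and 248, 120.4 and 429 TPM in fasted libraries (2.25 ± 0.43; called in 7 of the 9, adjusted p up to 0.078 without fed library 1). Pfkfb3, which makes the activator of the glycolytic enzyme phosphofructokinase, rose from 19.4, 61.01 and 51.3 TPM to 156, 109.6 and 207 TPM. Pfkfb3 rose by 1.92 ± 0.35 on the log2 scale (adjusted p = 0.00901). Of 22 glycolysis and lactate genes, Pfkfb3 was the only one called higher; Eno1 (-1.39 ± 0.32; called in 5 of the 9, adjusted p up to 0.109 without fed library 1) and Pkm (-0.85 ± 0.21; called in 1 of the 9, adjusted p up to 0.116 without fed library 3) were lower, and the median of the list was -0.397.

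Glul, glutamine synthetase, which fixes ammonia onto glutamate, rose from 69.7, 129 and 131 TPM to 598, 445 and 643 TPM. Glul rose by 2.38 ± 0.25 on the log2 scale (adjusted p = 0.000207). The light chain Slc7a8 of a neutral amino acid exchanger rose from 2.11, 5.76 and 2.02 TPM to 36.4, 15.1 and 56.4 TPM. Slc7a8 rose by 3.03 ± 0.46 on the log2 scale (adjusted p = 0.00209). Its heavy chain partner Slc3a2 rose from 294, 398 and 340.1 TPM to 936, 624 and 775 TPM. Slc3a2 rose by 1.17 ± 0.24 on the log2 scale (adjusted p = 0.0148; called in 7 of the 9, adjusted p up to 0.096 without fed library 1). Neither chain had a fasted library below its highest fed one. Of 173 solute carriers tested, 4 were higher (2.31%) and 2 lower (1.16%), shares near the 1.48% and 1.62% of all genes. The higher count ran from 2, without fed library 1 or without fed library 3, to 10 with 1 library left out. The clearest fall among them was Slc29a1, an equilibrative nucleoside transporter, from 427, 662 and 466 TPM to 223, 169.6 and 208 TPM. Slc29a1 fell by 1.35 ± 0.24 on the log2 scale (adjusted p = 0.0067). Dpep1, a membrane dipeptidase, rose from 0, 2.12 and 2.68 TPM to 35.1, 16.4 and 27.3 TPM. Dpep1 rose by 3.53 ± 0.51 on the log2 scale (adjusted p = 0.00189).

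**Figure D2:**
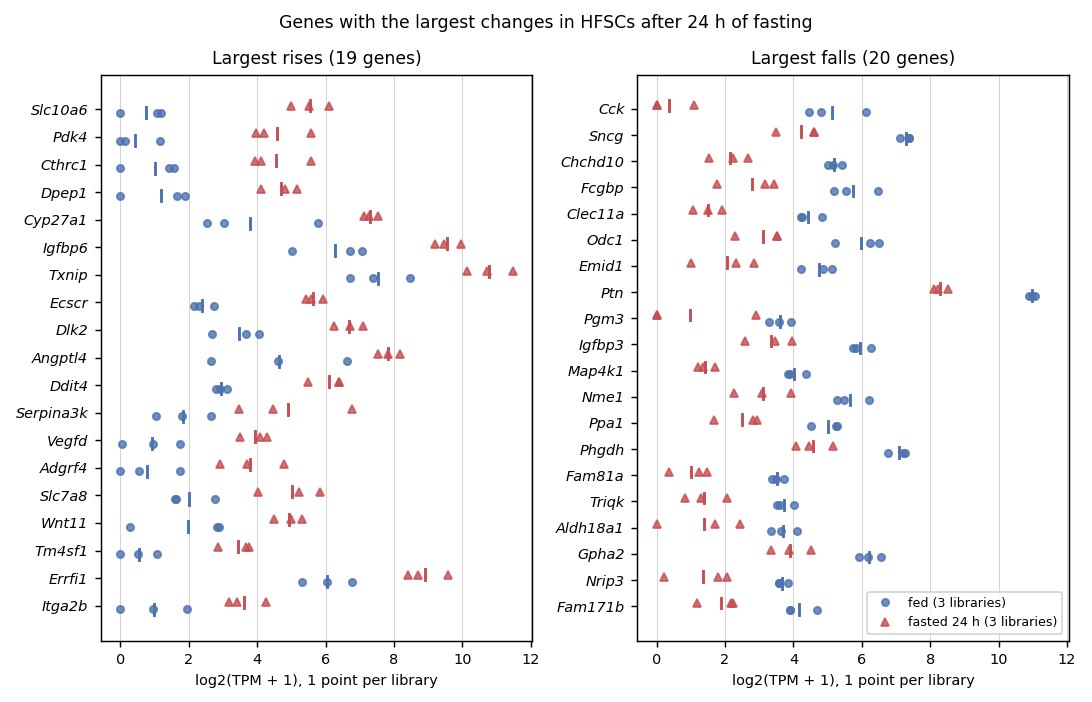
Levels of 19 genes with the largest rises and the 20 with the largest falls among called genes with a mean of at least 10 TPM in their higher group; the x axis is log2(TPM + 1), each symbol is 1 library (blue circles fed, red triangles fasted 24 h) and each bar is the mean of 3. The groups do not overlap for any of the 39 genes because this was a condition of their choice. Fed library 3 lies near the fasted ones for Angptl4.

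Of the 39 genes in that plot, 29 were called in all 9 fits that leave out 1 library, 17 of the 19 rises and 12 of the 20 falls. The exceptions among the rises were Serpina3k (called in 7 of the 9, adjusted p up to 0.0937 without fed library 1) and Itga2b (called in 7 of the 9, adjusted p up to 0.0591 without fed library 3). Among the falls they were Emid1, Ppa1 and Fam81a, each lost only without fed library 1 (adjusted p = 0.0614, 0.0533 and 0.0729), Fam171b, lost only without fed library 2 (adjusted p = 0.0539), Triqk (called in 6 of the 9, adjusted p up to 0.0577 without fed library 2), Nrip3 (called in 5 of the 9, adjusted p up to 0.123 without fed library 1), Pgm3 (called in 3 of the 9, adjusted p up to 0.157 without fed library 1) and Aldh18a1 (called in 2 of the 9, adjusted p up to 0.172 without fed library 1). The rises in the plot span log2 fold changes of 2.64 to 4.79 and the falls -4.76 to -2.29.

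Of 23 tested genes that answer to the glucocorticoid receptor, 11 were higher (47.8%) and none lower, against 1.48% and 1.62% of all genes tested. No other list of the report had as many higher calls, and the median log2 fold change of the 23 was 0.972. Between 7 and 13 of them were called when 1 library was left out. The list was drawn up with earlier results of these data known. It shares Cebpd, Klf15, Errfi1, Glul, Dusp1 and metallothioneins, Mt2 among them, with other lists, so these genes count in more than 1 list. Ddit4, an inhibitor of mTORC1, had 7.67, 6.58 and 5.995 TPM in fed and 83.2, 43.8 and 83.5 TPM in fasted libraries. Ddit4 rose by 3.15 ± 0.30 on the log2 scale (adjusted p = 5.99e-05). Errfi1, a feedback inhibitor of the EGF receptor, had 65.3, 109 and 38.9 TPM and 418, 339 and 767 TPM. Errfi1 rose by 2.85 ± 0.34 on the log2 scale (adjusted p = 0.000445). Sgk1, a kinase of sodium and survival signalling, rose from 249, 356 and 172 TPM to 823, 661 and 1321 TPM. Sgk1 rose by 1.85 ± 0.30 on the log2 scale (adjusted p = 0.00356). The leucine zipper protein Tsc22d3 rose from 309, 763 and 476 TPM to 1616, 1202 and 2280.0 TPM. Tsc22d3 rose by 1.77 ± 0.30 on the log2 scale (adjusted p = 0.00602). For Sgk1, Tsc22d3 and Errfi1, fasted library 3 was the highest and fasted library 2 the lowest of the fasted group. The other called members were Klf15, Cebpd and Glul, and, less firmly, Dusp1 (called in 5 of the 9, adjusted p up to 0.106 without fed library 3), Nfkbia (called in 2 of the 9, adjusted p up to 0.178 without fed library 3), Pik3ip1 (called in 1 of the 9, adjusted p up to 0.18 without fed library 1) and Mt2 (called in 6 of the 9, adjusted p up to 0.107 without fed library 1). The other 12 of the 23 were not called. Log2 fold changes in the list ran from -1.314 to 3.145, with 20 above 0. Fkbp5, a member not called, had 18.1, 32.7 and 21.4 TPM in fed and 32.5, 22.0 and 118 TPM in fasted libraries. Its log2 fold change was 0.89 ± 0.51 (adjusted p = 0.398). Nr3c1, the receptor itself, was at 145 ± 30.9 TPM in fed and 85.4 ± 24.3 TPM in fasted libraries (SD, n = 3; log2 fold change -0.78 ± 0.27, adjusted p = 0.135, not called).

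The promoters of 4 of the rising genes hold the core of the glucocorticoid receptor's palindromic binding element. These 4 were picked by this match, and their sequences are shown only to describe it. Of the 4, only Sgk1 is among the called members of the glucocorticoid list above. The search used RefSeq promoter windows of build GRCm38.p6, from 250 bases before to 50 after each annotated start, read on both strands, for GNACANNNTGTNC; a gene counts when any of its windows holds it. Of the 132 higher genes with a window 4 held it (3.03%), of the 153 lower genes none did, and of all 8762 tested genes 33 did (0.377%), against 0.475% of all 32851 windows. The 4 stretches below run 5′ to 3′ on the strand of the gene, all upstream of the start, with the element in capitals. They lie at chr5:103629524-103629596 (minus strand) for Slc10a6, chr10:21993672-21993744 (plus) for Sgk1, chr3:96557755-96557827 (plus) for Txnip and chr12:104406600-104406672 (plus) for Serpina3n.
Slc10a6: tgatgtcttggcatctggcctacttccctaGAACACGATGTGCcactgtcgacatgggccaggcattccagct
Sgk1: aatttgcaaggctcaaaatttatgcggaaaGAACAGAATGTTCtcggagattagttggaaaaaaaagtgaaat
Txnip: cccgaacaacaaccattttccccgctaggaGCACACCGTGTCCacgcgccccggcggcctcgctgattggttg
Serpina3n: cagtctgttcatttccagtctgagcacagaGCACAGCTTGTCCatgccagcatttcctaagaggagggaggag
The capitals begin 163, 188, 172 and 78 bases before the start of Slc10a6, Sgk1, Txnip and Serpina3n. The Sgk1 match is part of the full 15-base element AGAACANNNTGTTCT, which occurs in only 3 of the 32851 windows. Serpina3n, a serine protease inhibitor named here after its values were seen, rose from 9.47, 22.01 and 11.9 TPM to 93.1, 32.2 and 98.9 TPM (log2 fold change 2.22 ± 0.39, adjusted p = 0.00679); it belongs to a cluster of near-identical Serpina3 copies, so its reads and those of Serpina3k may be shared. A match is a description of letters and shows no binding in these cells.

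Other motifs gave these shares. The FOXO letters TGTTTAC were in 10 of the 132 higher genes (7.58%), 3 of the 153 lower genes (1.96%) and 3.06% of the genes tested, with Txnip, Bbc3 and Selenop among the 10. The cAMP element TGACGTCA was in 3.03% of higher, 3.27% of lower and 3.74% of tested genes. The AP-1 letters TGANTCA were in 7.58% of higher, 12.4% of lower and 5.98% of tested genes. A direct repeat for PPAR receptors, AGGTCANAGGTCA, was in none of the higher or lower genes and in 3 of all genes tested. In all, 15 motifs were searched. The ETS letters CCGGAAGT were in 1.52% of higher, 5.23% of lower and 9.88% of tested genes, the E-box CACGTG in 14.4%, 15.7% and 12.1%, the Kruppel-like factor letters CCACCC in 66 of the 132 higher genes, 72 of the 153 lower ones and 40.9% of tested genes, and the NRF2 letters TGACNNNGC in 18.9%, 18.3% and 17.0%. The C/EBP palindrome TTGCGCAA, the SRF element, the ATF4 letters TGATGCAAT and the NRF1 letters GCGCATGCGC were in at most 1.96% of the higher or lower genes. In that order, they were in 0.342%, 0.0228%, 0.126% and 2.42% of tested genes.

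Several transcription factors of stress and metabolism rose. Cebpd, a C/EBP factor induced in acute responses, had 46.8, 70.9 and 58.03 TPM in fed and 332, 215 and 374 TPM in fasted libraries. Cebpd rose by 2.35 ± 0.25 on the log2 scale (adjusted p = 0.00021). Klf15, a Kruppel-like factor of fasting metabolism, had 37.8, 56.5 and 24.8 TPM and 139.5, 176 and 342 TPM. Klf15 rose by 2.40 ± 0.34 on the log2 scale (adjusted p = 0.00153). Klf6 had 140.2, 174 and 91.2 TPM and 433, 284 and 332 TPM. Klf6 rose by 1.39 ± 0.25 on the log2 scale (adjusted p = 0.00815). Of 18 C/EBP and Kruppel-like factors, 4 were higher and none lower, the remaining one being Klf5 (1.61 ± 0.36; called in 6 of the 9, adjusted p up to 0.109 without fed library 1). The small Maf protein Maff, which lacks an activation domain and pairs with other leucine zipper proteins, rose from 3.67, 4.3 and 4.71 TPM to 20.2, 19.6 and 23.6 TPM. Maff rose by 2.08 ± 0.31 on the log2 scale (adjusted p = 0.00209). The spread of Maff within each group was narrow next to the gap between them. Maff, Klf6, Atf3 (1.33 ± 0.26; called in 8 of the 9, adjusted p up to 0.0754 without fed library 3), Btg2 (1.10 ± 0.25; called in 5 of the 9, adjusted p up to 0.13 without fed library 3) and Dusp1 were the 5 genes called higher among 29 immediate early and AP-1 genes (median 0.732, none lower), of which 2 to 6 were called with 1 library left out. The AP-1 subunits Fos and Jun themselves were not called, at 0.69 ± 0.26 and 0.63 ± 0.27 (log2 fold change ± SE).

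Secreted proteins and their partners changed in both directions. Igfbp6, which binds IGF-II in preference to IGF-I, rose from 31.3, 134 and 104 TPM to 991, 593 and 704 TPM. Igfbp6 rose by 3.27 ± 0.40 on the log2 scale (adjusted p = 0.000445). Igfbp3, the main carrier of IGF in blood, fell from 52.5, 76.2 and 55.7 TPM to 9.99, 4.94 and 14.6 TPM. Igfbp3 fell by 2.62 ± 0.43 on the log2 scale (adjusted p = 0.00427). Both changes were several times their standard errors, and they ran in opposite directions within the same 6 libraries. Eif4ebp1, the translation inhibitor that mTORC1 phosphorylates, was the other member called higher among 29 insulin, IGF and mTORC1 genes, from 34.9, 43.96 and 42.5 TPM to 157, 84.4 and 126 TPM. Eif4ebp1 rose by 1.54 ± 0.27 on the log2 scale (adjusted p = 0.0065).

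Wnt11, a ligand of noncanonical Wnt signalling, had 0.206, 6.31 and 6.04 TPM in fed and 30.9, 21.4 and 38.9 TPM in fasted libraries. Wnt11 rose by 2.95 ± 0.57 on the log2 scale (adjusted p = 0.0116). Of 29 tested Wnt pathway genes it was the only one called higher, and 1 was called lower. Each share was 3.45%, against 1.48% higher and 1.62% lower of all genes tested, and the median of the list was -0.161. Vegfd, a growth factor for lymphatic vessels, had 0.0337, 2.32 and 0.936 TPM and 15.8, 10.3 and 18.4 TPM. Vegfd rose by 3.04 ± 0.46 on the log2 scale (adjusted p = 0.00209). Dlk2, a membrane protein related to the Notch ligands, rose from 5.38, 15.5 and 11.8 TPM to 137, 74.6 and 105 TPM. Dlk2 rose by 3.23 ± 0.37 on the log2 scale (adjusted p = 0.000389). Cthrc1, a secreted glycoprotein, rose from 0, 1.96 and 1.68 TPM to 46.5, 14.2 and 16.4 TPM. Cthrc1 rose by 3.54 ± 0.50 on the log2 scale (adjusted p = 0.00153). Fed levels of these 4 genes reached at most 15.5 TPM, in fed library 2 for Dlk2. Ccl27a, the keratinocyte chemokine that attracts skin T cells, and Selenop, a selenium carrier, were named after their values were seen. Ccl27a rose from 612, 896 and 758 TPM to 1940.0, 1977 and 2615 TPM. Ccl27a rose by 1.53 ± 0.24 on the log2 scale (adjusted p = 0.00339). Selenop rose from 56.3, 90.8 and 120.4 TPM to 430.4, 325 and 294 TPM. Selenop rose by 2.01 ± 0.26 on the log2 scale (adjusted p = 0.000786). Ecscr and Tm4sf1, known mainly from endothelium, also rose. Ecscr went from 3.4, 5.71 and 3.91 TPM to 41.6, 46.7 and 59.1 TPM. Ecscr rose by 3.24 ± 0.30 on the log2 scale (adjusted p = 5.99e-05). Tm4sf1 rose from 0.437, 0 and 1.11 TPM to 6.18, 11.7 and 12.6 TPM. Tm4sf1 rose by 2.89 ± 0.48 on the log2 scale (adjusted p = 0.00421). The 6 endothelial markers summed to 0.329 to 1.59 TPM in the fed and 0.207 to 1.66 TPM in the fasted libraries, Pecam1, Cdh5 and Kdr included.

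The falls included several secreted proteins. Cck, the precursor of the satiety peptide cholecystokinin, had 20.7, 68.7 and 27.2 TPM in fed libraries and was listed at 0 in fasted libraries 1 and 2 and at 1.15 TPM in fasted library 3. Cck fell by 4.76 ± 0.59 on the log2 scale (adjusted p = 0.000532). Ptn, the heparin-binding growth factor pleiotrophin, was by far the most abundant of the 20 falls, with 2007, 2150.0 and 1892 TPM in fed and 367, 298 and 277 TPM in fasted libraries. Ptn fell by 2.69 ± 0.32 on the log2 scale (adjusted p = 0.000445). Gpha2, a glycoprotein hormone subunit, fell from 92.5, 72.1 and 59.1 TPM to 13.6, 21.7 and 9.15 TPM. Gpha2 fell by 2.31 ± 0.35 on the log2 scale (adjusted p = 0.00209). Clec11a, a secreted lectin that acts on bone and blood progenitors, fell from 27.5, 17.5 and 18.2 TPM to 1.85, 1.1 and 2.76 TPM. Clec11a fell by 2.94 ± 0.42 on the log2 scale (adjusted p = 0.00181). In relative terms the narrowest gap among these 4 was that of Gpha2, whose lowest fed library (59.1 TPM) still stood far above its highest fasted one (21.7 TPM). Of 38 tested secreted factors and hormones, 5 were higher and 3 lower, and the 3 lower ones (Cck, Ptn, Gpha2) were called in all 9 fits, against 1 (Angptl4) of the 5 higher ones. Sncg, a synuclein, fell from 166, 164 and 136 TPM to 10.3, 23.1 and 23.03 TPM. Sncg fell by 3.06 ± 0.41 on the log2 scale (adjusted p = 0.00106). Fcgbp, a mucin-like secreted protein, fell from 45.3, 88.7 and 35.3 TPM to 9.8, 2.37 and 8.002 TPM. Fcgbp fell by 2.95 ± 0.47 on the log2 scale (adjusted p = 0.00339).

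Several biosynthetic enzymes fell. Phgdh, the first enzyme of serine synthesis, had 152, 147 and 108 TPM in fed and 34.7, 20.8 and 15.8 TPM in fasted libraries. Phgdh fell by 2.52 ± 0.34 on the log2 scale (adjusted p = 0.000977). The next enzyme, Psat1, had 16.1, 13.1 and 10.6 TPM and 2.84, 3.05 and 1.47 TPM. Psat1 fell by 2.06 ± 0.46 on the log2 scale (adjusted p = 0.0255; called in 5 of the 9, adjusted p up to 0.118 without fed library 1). The last, Psph, was at 47.6 ± 4.14 TPM and 20.9 ± 9.45 TPM (SD, n = 3; log2 fold change -1.22 ± 0.34, adjusted p = 0.065, not called). All 3 enzymes of the route thus had lower means in the fasted libraries, with Phgdh alone called in all 9 fits. The proline enzymes Pycr1 (-2.22 ± 0.48; called in 7 of the 9, adjusted p up to 0.107 without fed library 1) and Aldh18a1 were the other members called lower among 22 serine, one-carbon and amino acid synthesis genes, with 4 lower and Glul higher; the median of the list was -0.126. Gcat, a mitochondrial enzyme of threonine breakdown to glycine that was named after its values were seen, fell from 375, 317 and 236 TPM to 150.2, 80.2 and 89.02 TPM. Gcat fell by 1.56 ± 0.26 on the log2 scale (adjusted p = 0.00478).

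Polyamine and nucleotide genes moved in both directions. Odc1, the rate-limiting enzyme of polyamine synthesis, fell from 89, 75.1 and 35.96 TPM to 3.88, 10.5 and 10.5 TPM. Odc1 fell by 2.87 ± 0.47 on the log2 scale (adjusted p = 0.00381). Spermidine synthase Srm fell from 86.9, 70.5 and 47.04 TPM to 21.7, 29.7 and 25.3 TPM. Srm fell by 1.35 ± 0.29 on the log2 scale (adjusted p = 0.0201; called in 7 of the 9, adjusted p up to 0.119 without fed library 1). Sat1, which acetylates polyamines for breakdown and export, rose from 100.3, 74.5 and 97.01 TPM to 323, 169 and 230.0 TPM. Sat1 rose by 1.36 ± 0.25 on the log2 scale (adjusted p = 0.00942). These were the 3 calls among 11 polyamine genes. Nme1, a nucleoside diphosphate kinase, fell from 72.8, 43.5 and 37.5 TPM to 14.3, 3.83 and 7.47 TPM (log2 fold change -2.55 ± 0.40, adjusted p = 0.00337); its neighbour and close copy Nme2 was also lower (-1.22 ± 0.27; called in 6 of the 9, adjusted p up to 0.122 without fed library 1), and reads of the pair may be shared. Paics, a bifunctional enzyme of purine synthesis, rose from 68.2, 104 and 103 TPM to 353, 214 and 309 TPM. Paics rose by 1.65 ± 0.25 on the log2 scale (adjusted p = 0.0027). The ribonucleotide reductase subunit Rrm2 rose from 5.77, 26.1 and 13.01 TPM to 62.6, 44.3 and 85.8 TPM. Rrm2 rose by 2.20 ± 0.41 on the log2 scale (adjusted p = 0.00941). The replication licensing factor Mcm2, by contrast, was lower (-2.20 ± 0.50; called in 5 of the 9, adjusted p up to 0.0999 without fed library 3), and Rrm2 and Mcm2 were the 2 calls among 27 replication and mitosis genes.

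**Figure D3:**
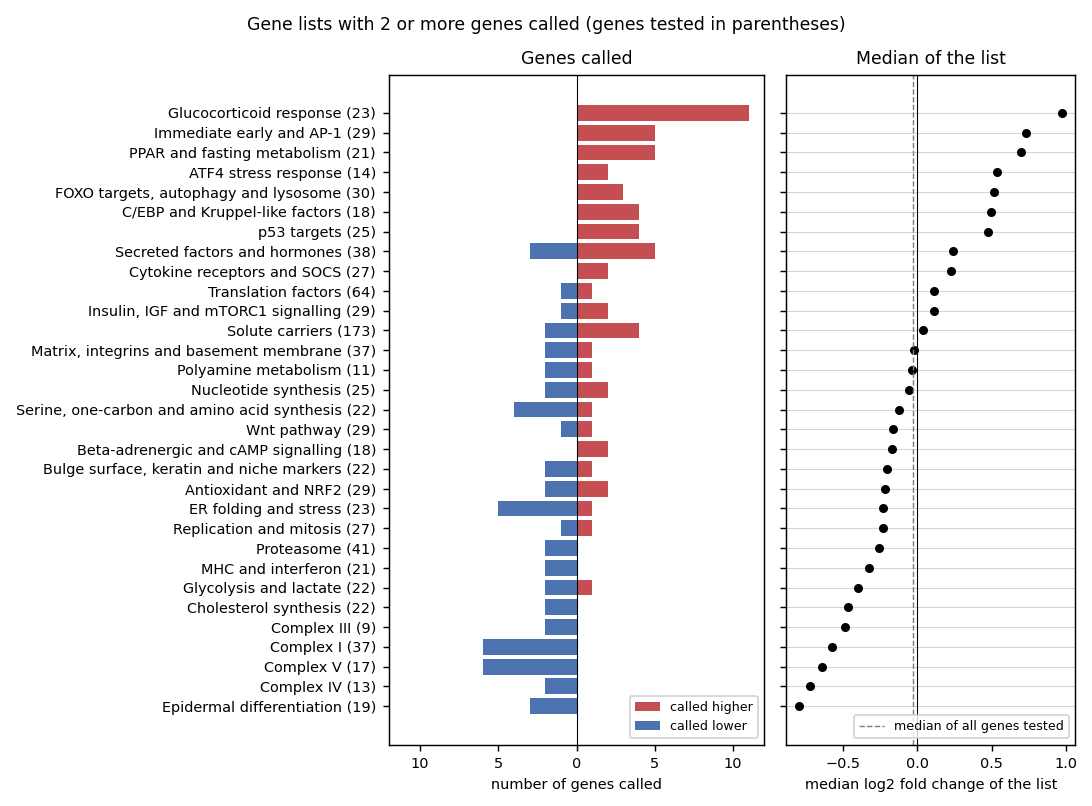
Gene lists with at least 2 called genes, ordered by the median log2 fold change of the list. The left panel counts the genes called higher (red) and lower (blue), with the number tested in parentheses; the right panel shows the list's median beside a dashed line at -0.027, the median over all genes tested. The glucocorticoid list holds 11 higher and none lower, and complexes I and V of the respiratory chain 6 lower each.

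Among nuclear subunits of the respiratory chain and the ATP synthase every call was lower. Of 80 tested subunits of complexes I to V, 16 were called lower and none higher, and 71 had a log2 fold change below 0 (median -0.583), against 5954 of 11456 genes over the whole table. Genes were counted under the complex of their list, with Ndufa4 and Ndufa4l2 under complex I. The calls fell on 6 of 37 genes listed under complex I and none of 4 under complex II. They fell on 2 of 9 under complex III, 2 of 13 under complex IV and 6 of 17 under complex V. Their number moved with single libraries, from 2 without fed library 1 to 46 in the fit with the most, and the 2 subunits called in all 9 were Ndufa1 and Atp5k. Ndufa1, a small membrane subunit of complex I, had 532, 481 and 458 TPM in fed and 258, 158 and 169 TPM in fasted libraries. Ndufa1 fell by 1.36 ± 0.23 on the log2 scale (adjusted p = 0.00458). Atp5k, a small membrane subunit of the ATP synthase, had 359.8, 372 and 341 TPM and 181, 106 and 123 TPM. Atp5k fell by 1.41 ± 0.23 on the log2 scale (adjusted p = 0.00384). Fasted library 1 was the highest of the fasted libraries in both. The 13 transcripts of the mitochondrial genome had no call, with a median of -0.200.

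**Figure D4:**
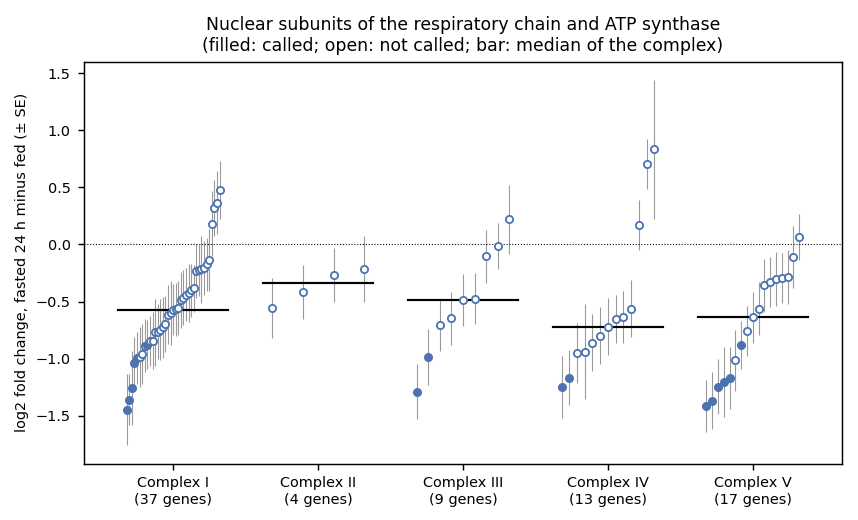
Log2 fold change, fasted 24 h minus fed, with its standard error for each of 80 nuclear subunits, grouped by complex along the x axis; filled points are called, open points are not, and each bar is the median of a complex. The medians lie at -0.57 for complex I, -0.34 for II, -0.49 for III, -0.72 for IV and -0.64 for V.

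Chchd10, a small protein of the mitochondrial intermembrane space, fell from 34.6, 42.2 and 30.9 TPM to 1.89, 3.7 and 5.31 TPM. Chchd10 fell by 3.05 ± 0.38 on the log2 scale (adjusted p = 0.000532). Smdt1, a subunit of the mitochondrial calcium uniporter, and Higd1a, a respiratory chain assembly protein, were named after their values were seen. Smdt1 fell from 312, 286 and 301 TPM to 150.3, 96.8 and 115 TPM. Smdt1 fell by 1.33 ± 0.22 on the log2 scale (adjusted p = 0.00376). Higd1a fell from 87.95, 78.3 and 87.2 TPM to 33.1, 26.6 and 35.04 TPM. Higd1a fell by 1.40 ± 0.24 on the log2 scale (adjusted p = 0.00505). Other mitochondrial machinery had few calls: 1 lower of 78 mitochondrial ribosomal proteins (median -0.337), 1 lower of 24 import genes (median -0.218) and none of 26 tricarboxylic acid cycle and pyruvate oxidation genes (median -0.173). Of the 78, only 14 had a log2 fold change above 0. All fasted libraries lay below the fed ones for 23 of the 78, against 10.2% of all genes tested. With 1 library left out 0 to 11 of the 78 were called lower, and without mt- symbols 5 were. Among 83 cytosolic ribosomal proteins none was called and the median was 0.019.

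Chaperones of the endoplasmic reticulum were the other housekeeping group with several lower calls, 5 of 23 (21.7%), with 1 higher (4.35%) and a median of -0.230. Over all genes tested, 1.62% were called lower and 1.48% higher. Calr, the lectin chaperone calreticulin, had 173, 178 and 172 TPM in fed and 69.8, 69.2 and 75.6 TPM in fasted libraries (log2 fold change -1.28 ± 0.21, adjusted p = 0.00497), with almost no spread within either group. The other lower members were Hsp90b1 (-0.99 ± 0.22; called in 5 of the 9, adjusted p up to 0.109 without fed library 1), Pdia6 (-1.09 ± 0.22; called in 7 of the 9, adjusted p up to 0.0937 without fed library 1), Sdf2l1 (-1.53 ± 0.33; called in 5 of the 9, adjusted p up to 0.109 without fed library 1) and Creld2 (-1.06 ± 0.24; called in 4 of the 9, adjusted p up to 0.114 without fed library 1). Dnajb9, a cochaperone of the unfolded protein response, was higher (1.17 ± 0.23; called in 7 of the 9, adjusted p up to 0.0752 without fed library 1). Hspa5, the main chaperone of the compartment, was not called (-0.48 ± 0.21, adjusted p = 0.235). Of 22 cholesterol synthesis genes 2 were lower and of 14 fatty acid synthesis genes none was called, with medians of -0.467 and -0.322.

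Ctsl, the lysosomal protease cathepsin L, rose from 135, 119 and 237 TPM to 951, 464 and 854 TPM. Ctsl rose by 2.20 ± 0.31 on the log2 scale (adjusted p = 0.00139). Gabarapl1, which coats autophagosomes, rose from 33.6, 35.9 and 53.5 TPM to 172, 104 and 138 TPM. Gabarapl1 rose by 1.73 ± 0.28 on the log2 scale (adjusted p = 0.00339). With Bnip3, a mitophagy receptor (1.38 ± 0.28; called in 6 of the 9, adjusted p up to 0.0687 without fed library 3), they were the 3 calls among 30 FOXO, autophagy and lysosome genes (median 0.512). The higher calls ran from 2, without fed library 1, fed library 3 or fasted library 3, to 6 with 1 library left out, and without mt- symbols the list had 7 higher and 1 lower. Pim3, a survival kinase named after its values were seen, rose from 26.6, 41.5 and 27.4 TPM to 114, 118 and 164 TPM. Pim3 rose by 2.03 ± 0.26 on the log2 scale (adjusted p = 0.000645). None of 22 vacuolar ATPase genes and 2 of 41 proteasome genes were called. The latter, both lower, were the immunoproteasome subunits Psmb9 (-2.04 ± 0.50; called in 2 of the 9, adjusted p up to 0.172 without fed library 1) and Psmb10 (-2.01 ± 0.46; called in 5 of the 9, adjusted p up to 0.093 without fed library 1).

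Of 25 p53 targets, 4 were higher (16.0%) and none lower, against 1.48% and 1.62% of all genes tested, and the median was 0.474. Cdkn1a, the inhibitor p21 of cyclin-dependent kinases, was the only one called in all 9 fits. It had 159.9, 137 and 145 TPM in fed and 278, 340.4 and 440.4 TPM in fasted libraries. Cdkn1a rose by 1.23 ± 0.22 on the log2 scale (adjusted p = 0.00753). The others were Btg2, Trp53inp1 (1.83 ± 0.44; called in 4 of the 9, adjusted p up to 0.178 without fed library 1) and Bbc3, the death-promoting BH3 protein PUMA (1.99 ± 0.47; called in 4 of the 9, adjusted p up to 0.157 without fed library 1). Bbc3 was the only call among 12 BCL2 family genes. The letters CATGNNNNNNCATG, a pair of p53 core half-sites, were in the promoter windows of 4 of the 132 higher genes (3.03%), 1 of the 153 lower genes (0.654%), 0.354% of tested genes and 0.712% of all windows. Their surroundings are shown for Cdkn1a and Cd200, the pair of these 4 that were called in all 9 fits, with the letters in capitals, 5′ to 3′ on the strand of the gene. They lie at chr17:29090901-29090974 (plus strand) and chr16:45409150-45409223 (minus strand), in build GRCm38.p6 (RefSeq).
Cdkn1a: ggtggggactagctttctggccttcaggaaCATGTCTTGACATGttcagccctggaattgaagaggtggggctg
Cd200: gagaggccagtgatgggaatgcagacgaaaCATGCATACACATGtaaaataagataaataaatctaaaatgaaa
The capitals begin 48 bases before the start of the Cdkn1a transcript used and 140 before that of Cd200. Levels are given per gene, so they do not tell which annotated start these cells used. Here too a match is a description of letters and shows no binding in these cells.

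Cd200, an immunoregulatory surface protein that marks bulge cells, rose from 374, 429 and 393 TPM to 1448, 804 and 1012 TPM (log2 fold change 1.41 ± 0.22, adjusted p = 0.00346), and fasted library 1 was the highest. It was the only gene called higher among 22 bulge surface, keratin and niche markers, of which the basal keratin Krt5 (-0.98 ± 0.23; called in 2 of the 9, adjusted p up to 0.123 without fed library 2) and S100a4 (-1.80 ± 0.37; called in 7 of the 9, adjusted p up to 0.0847 without fed library 3) were lower. The shares of the list, from 1 and 2 genes, were 4.55% higher and 9.09% lower, against 1.48% and 1.62% of all genes tested. Krt15, the most abundant of these 22 markers, was at 38030.0 ± 1439 TPM in fed and 24200.0 ± 6601 TPM in fasted libraries (SD, n = 3; log2 fold change -0.69 ± 0.29, adjusted p = 0.231, not called). Of 24 bulge transcription factors only Hopx was called, lower (-1.11 ± 0.28; called in 2 of the 9, adjusted p up to 0.181 without fed library 1), and Lhx2 was at -0.96 ± 0.32 (adjusted p = 0.118). No gene was called among 10 hedgehog, 38 BMP, TGF-beta and activin and 12 Notch pathway genes.

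The calls among differentiation genes were lower. Calml3, a calmodulin-like protein of differentiating epithelium, fell from 329.6, 269 and 346 TPM to 157, 94.02 and 75.9 TPM. Calml3 fell by 1.58 ± 0.28 on the log2 scale (adjusted p = 0.00737). With Lgals7 (-1.24 ± 0.26; called in 6 of the 9, adjusted p up to 0.0671 without fed library 2) and Hopx it made 3 lower calls among 19 epidermal differentiation genes, whose median of -0.792 was the lowest of the lists with 2 or more calls. Beside these genes, the summed level of 7 suprabasal keratinocyte markers ranged from 1315 to 3091 TPM in the fed libraries and from 745.5 to 1425 TPM in the fasted ones, with none of the 7 called; its part in the result was not tested.

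Leaving out the 13 mitochondrial transcripts and rescaling the rest widened the set without changing its direction. All 355 genes were also called there, each with the same sign, among 569 of 11978 genes (4.75%): 234 higher (1.95%) and 335 lower (2.8%). Over all genes the median moved from -0.027 to -0.088. Each of the 39 genes with the largest changes was called on both scales, with shifts of at most 0.428; Slc10a6 went from 4.79 to 5.05, Glul from 2.38 to 2.33, Cck from -4.76 to -5.19 and Ptn from -2.69 to -2.75. The respiratory chain changed most in calls, from 16 to 31 lower and from 0 to 1 higher of its nuclear subunits, while the glucocorticoid list went from 11 to 12 higher and from 0 to 1 lower.

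The 48 h libraries share the fed libraries with the 24 h comparison, so their levels are only set beside those at 24 h. Slc10a6 stood at 52.7, 104 and 135 TPM at 48 h, Pdk4 at 40.3, 45.6 and 58.2 TPM and Txnip at 1803, 1967 and 2386 TPM. Ccl27a, with 1940.0, 1977 and 2615 TPM at 24 h, stood at 5614, 9162 and 8065 TPM at 48 h, and Cd200, with 1448, 804 and 1012 TPM, at 2336, 2587 and 2411 TPM. Each 48 h library lay above each 24 h library for these last 2 genes. Ptn stood at 304, 124 and 96.6 TPM, Cck at 3.52, 2.65 and 0.215 TPM and Phgdh at 38.1, 17.7 and 21.8 TPM. The mitochondrial transcripts took 7.26 to 13.01% of TPM in the 48 h libraries, less than in any fed or 24 h library.

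**Figure D5:**
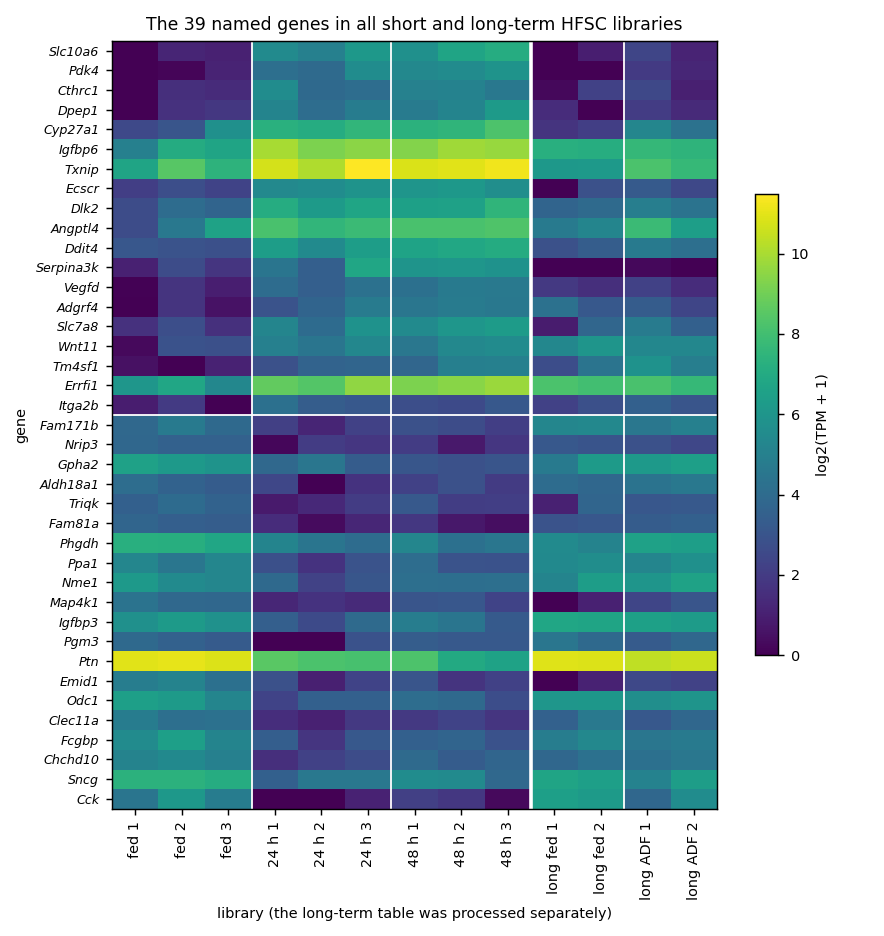
Level of the 39 genes with the largest changes in each HFSC library as log2(TPM + 1), from dark (0) to yellow; columns are the fed, 24 h and 48 h libraries and, after the wide white line, the long-term libraries of a separately processed table, rows above the horizontal line are rises and rows below it falls. Slc10a6 is dark in the fed columns, at most 1.27 TPM, and bright in the 24 h columns, at least 30.9 TPM.

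The libraries from mice fed or fasted on alternate days for 6 months (2 each, taken on the day after a fast) share no library with the 24 h comparison and were normalized in a table of their own, so only the order within that table is given. Of the 164 genes called higher at 24 h with a mean of at least 1 TPM there, 75 (45.7%) had both long-term fasted libraries above both fed ones and 30 (18.3%) had both below. Of the 182 genes called lower, 57 (31.3%) had both above and 43 (23.6%) both below. Over all 11044 genes tested at 24 h that reached this level, the shares were 30.2% above and 21.2% below, so the genes lower at 24 h were ordered much like the rest of the table. Cyp27a1 stood at 37.4 and 19.2 TPM in the long-term fasted and 2.34 and 3.35 TPM in the long-term fed libraries. Cck stood at 13.4 and 46.8 TPM and 89.04 and 76.4 TPM, and Phgdh at 93.3 and 86.1 TPM and 43.3 and 33.6 TPM, with the fasted libraries on the higher side for Phgdh and on the lower side for Cck. With 2 libraries in each group these orders carry no test.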

How the data were processed

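Gene expression of sorted skin stem cells was measured by RNA-seq; the labels' protocols name a micro column kit for the RNA and a single-cell kit for full-length mRNA amplification. The values are TPM (transcripts per 1000000) per gene symbol in tables the authors deposited; per the submitters' processing notes the tools were fastp 0.23.1, Salmon 1.4.0 and DESeq2 1.36.0 with build mm10 (for the long-term table, Trimmomatic 0.39 is also named), and strand handling is not given in those notes. TPM keeps no read depth, so the depth behind a value is unknown and no counting interval is given; genes with close copies may share reads.

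From the deposited TPM, genes with a mean of at least 1 TPM over the 6 libraries entered limma 3.58.1 (R 4.3.3; two-sided moderated test with a mean-variance trend on log2(TPM + 1), 9 HFSC libraries of the short experiment in 1 fit, 6 residual degrees of freedom, Benjamini-Hochberg adjustment over all genes tested, threshold 0.05). The scripts were tested on simulated data. The largest changes named are the 20 highest and 20 lowest log2 fold changes among called genes whose groups do not overlap, with a mean of at least 10 TPM in the higher group and no clone name; called members and leading genes of 55 lists were also eligible. Among the largest rises, 1 gene is not reported here and was left out of the named genes, the lists and the gene labels of the plots; counts over all genes include it. Members and lists were chosen with earlier results of these data known, so lists are described by counts and medians, with no set test. The 3 libraries of a group carry replicate numbers 1 to 3 in the labels; deviations of same-numbered fed and fasted libraries correlated at 0.035, -0.131 and -0.05, so the numbers were not taken to pair the samples. Alternatives were 20 settings of pseudocount, filter, scaling, samples and left-out libraries. Promoter windows came from RefSeq (GRCm38.p6). The libraries of the second telogen and of epidermal stem cells were not used here.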

Additional observations from a re-analysis of the deposited data

How the results depend on the processing

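Against 355 genes called (169 higher, 186 lower), the total was 65 with no filter on low values (31 and 34), 141 with no mean-variance trend (73 and 68), 179 from only the 6 libraries compared (97 and 82), 718 after quantile normalization (381 and 337), 564 after scaling by median ratios (309 and 255), 569 without mt- symbols (234 and 335) and 531 without mt- and ribosomal protein genes (223 and 308). A pseudocount of 0.1 gave 259, a pseudocount of 5 gave 372 and a filter at a mean of 5 TPM gave 354. Leaving out 1 library at a time gave 99 to 496 genes, 60 to 336 higher and 39 to 355 lower, and the median of all genes ran from -0.124 to 0.144. Without fasted library 2 the split was 336 higher and 160 lower, and without fasted library 1 it was 132 and 355. With the replicate block 282 genes were called (143 and 139). The labels do not say whether the replicate numbers pair the samples, and so few libraries cannot exclude it. The numbers were not taken to pair the samples, so this fit is given once and the pairing was not used. Of the 102 called genes that the text names, 27 were called under each of the 20 settings, and none changed direction under a setting that gave it a value. The depth of the libraries cannot be read from TPM, so its limit on low genes is unknown.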

Other observations

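Agrp, which encodes the agouti-related peptide known as a hunger signal of the hypothalamus and an antagonist of melanocortin receptors, was listed at 0 in all 3 fed HFSC libraries and at 2.55, 6.87 and 3.01 TPM in the libraries fasted for 24 h (adjusted p = 0.0283 in limma's test; called in 5 of the 9, adjusted p up to 0.0992 without fed library 1), and stood at 6.92, 15.9 and 4.15 TPM at 48 h. It was noticed after its values were seen. These levels are low, and no fold is given against fed libraries listed at 0. Tnfrsf11b, the decoy receptor osteoprotegerin, rose from 22.2, 21.1 and 12.6 TPM to 56.6, 75.9 and 48.5 TPM (adjusted p = 0.00891), and Ccn1, a matrix-associated signalling protein, from 689, 652 and 442 TPM to 1129, 1587 and 2100.0 TPM (adjusted p = 0.0091; called in 8 of the 9, adjusted p up to 0.0591 without fed library 3). Gamt, the last enzyme of creatine synthesis, fell from 83.2, 47.8 and 31.9 TPM to 17.4, 5.79 and 8.26 TPM (adjusted p = 0.00941; called in 8 of the 9, adjusted p up to 0.0713 without fed library 1). These genes too were picked after their values were seen.

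Clone-named gene models (Gm10715, Gm10717 to Gm10721, Gm10800, Gm10801, Gm11168, Gm17535 and Gm21738, 11 in all) moved together and widely without being called. Summed, they took 137.1, 1915 and 88.0 TPM in fed libraries 1 to 3 and 2064, 4594 and 16790.0 TPM in fasted libraries 1 to 3, with adjusted p-values between 0.0761 and 0.137. Fed library 2 held nearly as much as fasted library 1, and fasted library 3 more than the other 5 libraries together.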
